A study of Mus musculus with 4 samples.

Results

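The mouse mitochondrial genome held 37 of the 55335 gene rows of the deposited count table. Members were all rows whose chromosome is the mitochondrial one, whatever their level. They are 13 protein-coding genes, 2 rRNA genes and 22 tRNA genes. Of the protein-coding genes, 7 encode subunits of complex I, 1 a subunit of complex III, 3 subunits of complex IV and 2 subunits of ATP synthase. All were followed in 4 RNA-seq libraries of spermatogonial stem cells (SSCs) grown in culture, the germ cells from which the testis renews its sperm-producing line.

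Libraries A and B came from cells labelled Tex11PM/Y. The label names Tex11, a gene on the X chromosome with a role in meiotic crossing over, and leaves PM undefined. The other pair were WT (wild-type) replicates 1 and 2. Cells of both genotypes had the strain label C57/BL6*DBA2, were derived from testis at postnatal day 10, were kept in a standard medium with regular passages, and were collected on a cell sorter. The labels do not say whether the libraries of a genotype came from separate animals or cultures, so p-values measure only the spread between these samples. Messenger RNA had been purified on poly-T beads, and the library kit is not stated to keep strand.

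Mitochondrial DNA is a small circle that is copied into long precursor RNAs from both strands. The tRNAs lie between most of the mRNAs and rRNAs and are cut out of the precursors, which frees the RNAs on either side. Most mitochondrial mRNAs then receive a short poly(A) tail, which in some cases completes the stop codon. The proteins are core subunits of the respiratory chain and ATP synthase, which they form together with many nuclear-encoded subunits, and the rRNAs and tRNAs serve the mitochondrial ribosome that makes them.

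The sequences show how tightly the genes are packed. The reading frames of mt-Atp8 and mt-Atp6 share 43 bases at chrM:7927-7969 on the plus strand of mm10, given here with the first codon of mt-Atp6 and the last codon of mt-Atp8 in capitals. All sequences are from the GENCODE M21 transcripts, in which all 37 members have the coordinates of the count table.
mt-Atp8 and mt-Atp6 overlap: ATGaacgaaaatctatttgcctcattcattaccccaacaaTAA
The genes of mt-Nd5 and mt-Nd6 lie on opposite strands and share 14 bases at chrM:13552-13565, shown on the plus strand with the last codon of mt-Nd5 in capitals.
mt-Nd5 and mt-Nd6 overlap: ttaatctcgagTAA
Reads from such overlaps cannot be given to one gene from their sequence alone.

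Of the 13 protein-coding genes, 3 end 1 base after their last whole codon, namely mt-Co3, mt-Nd4 and mt-Cytb. Their last 31 bases, on the plus strand at chrM:9360-9390, chrM:11514-11544 and chrM:15258-15288, are given with that base in capitals.
mt-Co3 end: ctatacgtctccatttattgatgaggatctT
mt-Nd4 end: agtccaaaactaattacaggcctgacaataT
mt-Cytb end: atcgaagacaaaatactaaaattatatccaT
In each, the lone T becomes a stop codon once a poly(A) tail is added. The other 10 protein-coding genes end in a complete stop codon in the annotation.

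A near-identical copy of part of this genome carries 7 annotated pseudogenes on chromosome 1, and it bears on which members can be counted. Its pseudogenes span chr1:24611535-24616197 on the minus strand of mm10 and correspond to chrM:6381-11042, a stretch of 4662 bases. No genome sequence was compared, so where the copy itself ends is not known. Within the annotated pseudogenes, 4142 of 4149 compared bases were identical to the mitochondrial genes. The first 90 bases of mt-Co2 (chrM:7013-7102, plus strand) and of its copy Gm28661 (chr1:24615476-24615565, minus strand) are shown because no base differs between them, with the first codon in capitals.
mt-Co2: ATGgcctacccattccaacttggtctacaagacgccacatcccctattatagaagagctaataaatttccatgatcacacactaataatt
Gm28661: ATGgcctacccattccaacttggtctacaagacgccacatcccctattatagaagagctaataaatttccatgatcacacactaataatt
An edge of the annotated pseudogenes lies inside mt-Co1. The 60 bases at chrM:6381-6440 and at chr1:24616138-24616197 show all differences between mt-Co1 and Gm29216, in capitals.
mt-Co1: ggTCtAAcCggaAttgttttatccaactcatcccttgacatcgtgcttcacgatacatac
Gm29216: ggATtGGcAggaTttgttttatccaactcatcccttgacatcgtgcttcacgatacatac
Counted from the first base of mt-Co1, with the mitochondrial base first, the differences are T1056A, C1057T, A1059G, A1060G, C1062A and A1066T. The other annotated edge lies inside mt-Nd4, shown at chrM:11013-11072 with the bases beyond the pseudogene in capitals.
mt-Nd4: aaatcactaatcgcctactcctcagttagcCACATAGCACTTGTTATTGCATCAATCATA
The remaining difference is T3C, counted from the first base of mt-Nd3, in the copy Gm28438.

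Depth was alike in the 4 libraries, between 19047148 and 19804951 counts. A count of 0 allows up to 3 counts, or between 0.149 and 0.169 CPM (read counts scaled to library size with TMM factors), counting error only. Tex11 itself measured 22.7 and 9.32 CPM in Tex11PM/Y libraries A and B, against 66.4 and 126.0 CPM in WT replicates 1 and 2. Its log2 fold change, Tex11PM/Y over WT, was -2.59 ± 0.54 (SE, n = 2 each). In edgeR's quasi-likelihood test its unadjusted p was 0.00187 and its adjusted p 0.884. A difference of that size was thus not called, so the lack of a call does not show that a gene is unchanged. All 10 germ cell and SSC markers were detected, and their summed level was 3689 and 2791 CPM in libraries A and B, against 2541 and 2787 CPM in WT replicates 1 and 2. Their fitted log2 fold changes ran from -0.95 for Etv5 to 0.91 for Zbtb16, with 7 above 0, 3 below 0 (Etv5, Gfra1 and Ret) and 0 called. Zbtb16 alone did not overlap between the genotypes, where 32.4% of all genes tested did not overlap in either direction. Markers of other cells were also present. The summed level of 14 fibroblast markers was 657 and 6002 CPM in Tex11PM/Y libraries A and B, against 16604.5 and 4708 CPM in WT replicates 1 and 2, and that of 12 macrophage markers was 27.5 and 1338 CPM against 726 and 565 CPM. The 7 Sertoli markers summed to 17.9 and 23.5 CPM against 51.2 and 33.1 CPM. No marker of these lists was at 0 in all 4 libraries.

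Mitochondrial genes took 2.48% and 2.12% of all counts in Tex11PM/Y libraries A and B, against 2.35% and 1.73% in WT replicates 1 and 2. The groups overlap, since WT replicate 1 lies above library B. The means were 2.3% ± 0.26 in Tex11PM/Y cells and 2.04% ± 0.436 in WT cells (SD, n = 2 each), with a two-sided exact permutation p of 0.667, where a comparison of 2 libraries with 2 cannot go below 0.33. By the authors' TPM, which scale for gene length, the share was 5.26% and 3.92% in libraries A and B of Tex11PM/Y cells, against 3.69% and 3.29% in WT replicates 1 and 2, and the groups did not overlap. In bulk RNA, fewer cells of a type and less RNA per cell cannot be told apart, and the part of the fibroblast and macrophage markers in these shares was not tested. Protein-coding genes held between 97.0% and 97.9% of the mitochondrial counts in the 4 libraries. The 6 wholly inside the stretch copied on chromosome 1 held 1650 and 619 counts in libraries A and B, against 1257 and 650 in WT replicates 1 and 2. The part of the copy in the shares was not tested.

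Of the 7 complex I subunits, mt-Nd1, mt-Nd2 and mt-Nd4 stood higher in libraries A and B than in both WT replicates. Over all 17262 genes tested, 16.1% were apart in that direction, and none of the 3 passed the threshold. These 3 encode core membrane subunits of the enzyme that takes electrons from NADH. mt-Nd1 measured 2263 and 2122 CPM in Tex11PM/Y libraries A and B, against 1401 and 1929 CPM in WT replicates 1 and 2. mt-Nd2 measured 1349.5 and 1122 CPM in libraries A and B, against 846 and 919 CPM in WT replicates 1 and 2. mt-Nd4 measured 1583 and 969 CPM in libraries A and B, against 718 and 770.5 CPM in WT replicates 1 and 2. In all of these genes library A was the highest and WT replicate 1 the lowest, while the summed fibroblast markers were lowest in library A (657 CPM) and highest in WT replicate 1 (16604.5 CPM). Their part in these differences was not tested. Their log2 fold changes, Tex11PM/Y over WT, were 0.40 ± 0.34 for mt-Nd1, 0.49 ± 0.31 for mt-Nd2 and 0.78 ± 0.35 for mt-Nd4 (SE, n = 2 each), with an adjusted p of 0.884 for each in edgeR's quasi-likelihood test. The unadjusted p of mt-Nd4, 0.063, was the lowest of all members in that edgeR test. Part of mt-Nd4 lies in the stretch copied on chromosome 1, so its counts are less certain.

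The remaining complex I subunits did not separate the genotypes. mt-Nd5, one of the large proton-pumping subunits, measured 2006 and 913 CPM in Tex11PM/Y libraries A and B, against 1836 and 752 CPM in WT replicates 1 and 2. mt-Nd6, the one protein-coding gene on the minus strand, measured 502 and 167 CPM in libraries A and B, against 362 and 163 CPM in WT replicates 1 and 2. Both were high in library A and WT replicate 1 and low in library B and WT replicate 2. The library A level was 2.2 times that of library B for mt-Nd5 and 3.01 times for mt-Nd6, and WT replicate 1 exceeded WT replicate 2 by 2.44 and 2.22 times. The fitted log2 fold changes between genotypes were smaller than their standard errors, 0.17 ± 0.54 for mt-Nd5 and 0.35 ± 0.59 for mt-Nd6 (SE, edgeR).

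The small subunits mt-Nd3 and mt-Nd4l were counted at far lower levels. mt-Nd3 had 277 and 263 counts in Tex11PM/Y libraries A and B, against 365 and 227 counts in WT replicates 1 and 2. mt-Nd4l had 81 and 19 counts in libraries A and B, against 54 and 10 counts in WT replicates 1 and 2. The 4 mt-Nd3 values lie close together, while mt-Nd4l showed the A and WT 1 against B and WT 2 pattern of mt-Nd5 and mt-Nd6. Counts of mt-Nd6 also cannot be given to a strand, since the RNA of the opposite strand runs through the gene and the kit is not stated to keep strand.

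Complex III has 1 mitochondrial subunit, mt-Cytb, the cytochrome b that passes electrons from ubiquinol. It measured 3983 and 3649 CPM in Tex11PM/Y libraries A and B, against 1950.0 and 2907.5 CPM in WT replicates 1 and 2. Both Tex11PM/Y values lie above both WT values, as for 16.1% of all genes tested, and the WT replicates differ by 1.49 times. Here too library A, lowest in fibroblast markers, was the highest and WT replicate 1, highest in them, was the lowest. The log2 fold change was 0.65 ± 0.36 (SE, n = 2 each), with an adjusted p of 0.884 in edgeR.

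In complex IV, which passes electrons to oxygen, the catalytic subunit mt-Co1 had the most counts of all members in every library. It measured 11727 and 11465 CPM in Tex11PM/Y libraries A and B, against 17318 and 9023 CPM in WT replicates 1 and 2. The libraries A and B lie between the WT replicates, and the log2 fold change was -0.18 ± 0.44 with an adjusted p of 0.951 in edgeR. mt-Co2, which binds cytochrome c, had 420 and 118 counts in libraries A and B, against 253 and 125 counts in WT replicates 1 and 2. mt-Co3, the remaining core subunit, had 385 and 119 counts in libraries A and B, against 332 and 154 counts in WT replicates 1 and 2. Per kilobase, mt-Co1 stood 245 to 863 times above mt-Co2 in the 4 libraries. mt-Co2 and mt-Co3 lie inside the stretch copied on chromosome 1, and the part of the copy in their low counts was not tested.

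Both ATP synthase subunits, which belong to the membrane part that carries protons, were at low counts. mt-Atp6 had 485 and 99 counts in Tex11PM/Y libraries A and B, against 252 and 131 counts in WT replicates 1 and 2. mt-Atp8 had 2 and 1 counts in libraries A and B, against 1 and 3 counts in WT replicates 1 and 2, and was too low to test. Library A and WT replicate 1 were again the high libraries for mt-Atp6, as they were for mt-Co2 and mt-Co3. In the authors' FPKM, mt-Atp8 read 20.1 and 4.72 in libraries A and B, against 8.65 and 5.31 in WT replicates 1 and 2, levels close to the mt-Atp6 FPKM of 28.6 and 6.05 against 15.3 and 7.69. How reads within the overlap of these genes were counted is not stated in the labels or headers.

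**Figure D1:**
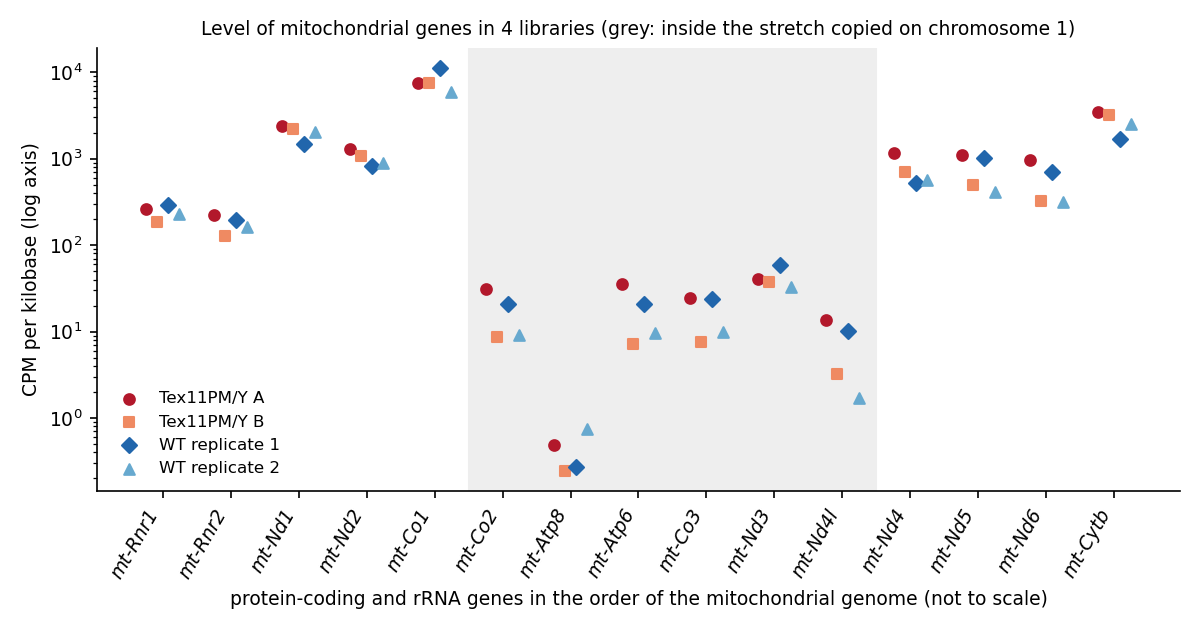
Level of the 13 protein-coding and 2 rRNA genes in CPM per kilobase of gene (log axis), in genome order, with 1 point per library and no averaging; grey marks the genes that lie wholly inside the stretch copied on chromosome 1. The 6 genes in grey lie between 0.244 and 58.9 CPM per kilobase, and the other 7 protein-coding genes between 315 and 11209.

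Among the protein-coding genes, the low ones were those wholly inside the copied stretch. Per kilobase, the median of the 6 protein-coding genes wholly inside it was 27.8 and 7.4 CPM in Tex11PM/Y libraries A and B, against 20.8 and 9.48 CPM in WT replicates 1 and 2. The median of the 7 that lie outside or partly inside was 1300.1 and 1080.5 CPM in libraries A and B, against 1006 and 885 CPM in WT replicates 1 and 2. The ratio of these medians was between 46.8 and 146 in the 4 libraries. No protein-coding gene inside the stretch reached the level of any outside it, in any library.

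To see how much of each gene could be told from other transcripts, every window of 250 bases, the shorter end of the fragment size in the labels, was looked up in the other GENCODE transcripts. The share of windows also found elsewhere was 99.3% for mt-Co2, 99.3% for mt-Atp6, 99.8% for mt-Co3, 93.9% for mt-Nd3 and 93.8% for mt-Nd4l. It was 55.5% for mt-Nd4 and 17.7% for mt-Co1, the genes at the annotated edges of the copy. For mt-Nd1, mt-Nd2, mt-Nd5, mt-Nd6, mt-Cytb and both rRNAs it was 0.0%. With windows of 50 bases it was 62.2% for mt-Nd4, 51.1% for mt-Co1, 8.19% for mt-Nd2, 7.61% for mt-Nd5 and 1.04% for mt-Rnr2. It stayed at 0.0% for mt-Nd1, mt-Nd6, mt-Cytb and mt-Rnr1. Copies without an annotated transcript were not searched. mt-Atp8, at 204 bases, is shorter than the window of 250 bases, and no pseudogene is annotated opposite it, so its sequence in the copy was not compared. How reads with several equally good places were treated is not stated, and the part of the copy in the low counts was not tested.

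**Figure D2:**
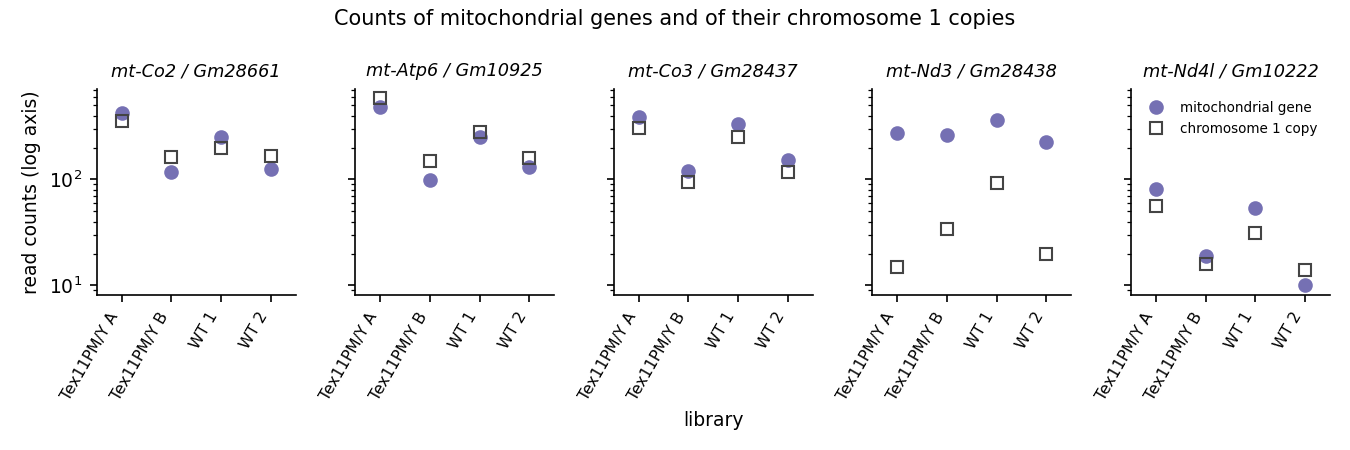
Read counts (log axis) of 5 mitochondrial genes and of their chromosome 1 copies in each library, 1 point per library. For mt-Co2, mt-Atp6, mt-Co3 and mt-Nd4l the ratio of copy to gene lies between 0.574 and 1.52, while mt-Nd3 lies above its copy in all 4 libraries.

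For mt-Atp6, mt-Co2 and mt-Co3, the chromosome 1 pseudogene was counted at a level near that of its mitochondrial partner. Gm10925, the copy of mt-Atp6, had 583 and 150 counts in Tex11PM/Y libraries A and B, against 280 and 160 counts in WT replicates 1 and 2. Gm28661, the copy of mt-Co2, had 357 and 164 counts in libraries A and B, against 198 and 166 counts in WT replicates 1 and 2. Gm28437, the copy of mt-Co3, had 307 and 95 counts in libraries A and B, against 253 and 117 counts in WT replicates 1 and 2. The copies were high in library A and WT replicate 1, as their partners were. The ratio of copy to gene was between 1.11 and 1.52 for mt-Atp6, 0.783 and 1.39 for mt-Co2, and 0.76 and 0.798 for mt-Co3.

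For mt-Co1 and mt-Nd4, at the annotated edges of the copy, gene and pseudogene were far apart. The counts of these genes include 1053 and 502 bases outside the pseudogenes, so their ratios are not comparable with those above. Gm29216, the copy of the end of mt-Co1, had 297 and 77 counts in Tex11PM/Y libraries A and B, against 467 and 66 counts in WT replicates 1 and 2, at most 0.00152 of the counts of mt-Co1. Gm28439, the copy of the start of mt-Nd4, had 146 and 24 counts in libraries A and B, against 87 and 22 counts in WT replicates 1 and 2, at most 0.00681 of those of mt-Nd4. Gm28438, the copy of mt-Nd3 with 1 differing base, had 15 and 34 counts in libraries A and B, against 92 and 20 counts in WT replicates 1 and 2. Gm10222, the copy of mt-Nd4l, had 56 and 16 counts in libraries A and B, against 31 and 14 counts in WT replicates 1 and 2. Its ratio to mt-Nd4l was between 0.574 and 1.4, so this pair lay close together. All 7 copies together held 1761 and 560 counts in libraries A and B, against 1408 and 565 counts in WT replicates 1 and 2. The values of members inside the stretch are therefore uncertain, and so are those of their copies. mt-Nd4 and mt-Co1, partly inside it, carry the same limit for the part they share. Of less similar copies elsewhere, Gm13340 on chromosome 2, a copy of mt-Co1, had 64 and 22 counts against 64 and 28 counts. The listed copy Gm28440 had 0 counts in all 4 libraries.

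The rRNAs, which carry the catalytic and decoding parts of the mitochondrial ribosome, were seen at a low level in these poly-T purified libraries. mt-Rnr1, the small-subunit rRNA, measured 251 and 178 CPM in Tex11PM/Y libraries A and B, against 279 and 216 CPM in WT replicates 1 and 2. mt-Rnr2, the large-subunit rRNA, measured 348 and 200.5 CPM in libraries A and B, against 313 and 253 CPM in WT replicates 1 and 2. Library B was the lowest for both, and the groups overlapped. Per kilobase the ratio of mt-Rnr2 to mt-Rnr1 was 0.838 and 0.68 in libraries A and B, against 0.677 and 0.707 in WT replicates 1 and 2. The log2 fold changes were -0.21 ± 0.32 and -0.04 ± 0.35 (SE), and together the rRNAs held between 1.81% and 2.76% of the mitochondrial counts.

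The 22 tRNA genes held between 0.212% and 0.309% of the mitochondrial counts. The tRNA genes are between 59 and 75 bases long, shorter than the library fragments, so counts on them cannot be told apart from reads of precursor RNAs. Of the 22, 11 were high enough to test and 5 had 0 counts in all 4 libraries, namely mt-Tf, mt-Tv, mt-Ts1, mt-Td and mt-Tk. The highest was mt-Tp, the proline tRNA, at 394 and 471 counts in Tex11PM/Y libraries A and B, against 612 and 371 counts in WT replicates 1 and 2. mt-Tc, the cysteine tRNA, had 144 and 199 counts in libraries A and B, against 107 and 182 counts in WT replicates 1 and 2. mt-Tn, the asparagine tRNA, had 94 and 169 counts in libraries A and B, against 117 and 167 counts in WT replicates 1 and 2. In these the groups overlapped. Each of these is encoded on the minus strand, so the RNA of the opposite strand also runs through them.

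Of the 11 tested tRNA genes, 3 stood higher in libraries A and B than in both WT replicates, where 16.1% of all 17262 genes tested were apart in that direction. mt-Ty, the tyrosine tRNA, had 68 and 77 counts in Tex11PM/Y libraries A and B, against 20 and 37 counts in WT replicates 1 and 2, a log2 fold change of 1.27 ± 0.67 (SE). mt-Tl2, a leucine tRNA, had 146 and 207 counts in libraries A and B, against 106 and 69 counts in WT replicates 1 and 2, a log2 fold change of 0.90 ± 0.59. mt-Te, the glutamate tRNA, had 33 and 36 counts in libraries A and B, against 14 and 19 counts in WT replicates 1 and 2, a log2 fold change of 0.98 ± 0.67. mt-Ty and mt-Te are encoded on the minus strand, so the RNA of the opposite strand also runs through them. The adjusted p of each of the 3 was 0.884 in edgeR. By limma on log2(FPKM + 1) their log2 fold changes were 0.46, 0.42 and 0.62. In the authors' FPKM mt-Tl2 overlapped, at 116 and 118 in libraries A and B, against 120 and 63.4 in WT replicates 1 and 2. mt-Te also overlapped there, at 368 and 167 against 196 and 132, while mt-Ty stayed apart. By counts the other 8 overlapped, with log2 fold changes between -0.60 for mt-Tw, the tryptophan tRNA, and 0.88 for mt-Tl1, the other leucine tRNA. For mt-Tl1 that value was 0.11 without WT replicate 1, which had 7 counts, 2.49 without WT replicate 2 and 0.08 by limma on log2(FPKM + 1). For mt-Tw it was -1.99 to 0.51 with a library left out. mt-Ti, mt-Tq, mt-Tm, mt-Ta, mt-Tr and mt-Tt, the tRNAs for isoleucine, glutamine, methionine, alanine, arginine and threonine, had between 0 and 11 counts in a library and were not tested.

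The authors' FPKM gave many tRNA genes a level where the count table has almost none. mt-Ta, with 0 and 3 counts in Tex11PM/Y libraries A and B and 2 and 0 counts in WT replicates 1 and 2, read 44.4 and 69.1 FPKM against 44.1 and 71.6 FPKM. mt-Tl1, with 52 and 39 counts in libraries A and B and 7 and 41 counts in WT replicates 1 and 2, read 162 and 137 FPKM against 108 and 183 FPKM. mt-Ts1, with 0 counts in all 4 libraries, was listed at 10.0 FPKM in library A and 9.27 FPKM in WT replicate 1, and at 0 in library B and WT replicate 2. The tables therefore differ in which tRNA genes they show, and directions for these genes depend on the table.

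**Figure D3:**
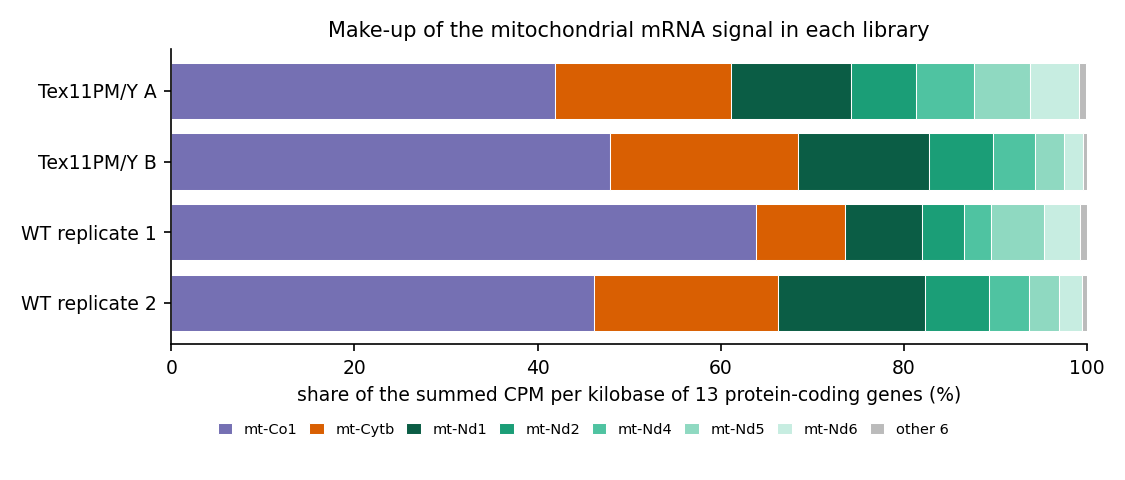
Share of each gene in the summed CPM per kilobase of the 13 protein-coding genes, in percent, with 1 bar per library; the 6 genes inside the copied stretch are drawn together in grey. mt-Co1 takes 41.9% and 47.9% in libraries A and B of Tex11PM/Y cells, against 63.9% and 46.2% in WT replicates 1 and 2.

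The make-up of the mitochondrial mRNA signal was set against length, so that members could be compared with each other. mt-Co1, mt-Cytb and mt-Nd1 took ranks 1, 2 and 3, in that order, in all 4 libraries. These are ranks of counted reads, and the part of the chromosome 1 copy in the low ranks of genes inside the copied stretch was not tested. mt-Cytb held 19.2% and 20.6% in libraries A and B of Tex11PM/Y cells, against 9.71% and 20.1% in WT replicates 1 and 2. mt-Nd1 held 13.1% and 14.3% in libraries A and B, against 8.34% and 16% in WT replicates 1 and 2. WT replicate 1 stood apart with more mt-Co1 and less mt-Cytb, mt-Nd1 and mt-Nd2, whereas WT replicate 2 was close to library B. The ratio of mt-Co1 to mt-Cytb per kilobase was 2.18 and 2.33 in libraries A and B, against 6.58 and 2.3 in WT replicates 1 and 2. WT replicate 1 was also the library with the highest summed level of fibroblast markers, at 1.55% of counts, and the part of those cells in its make-up was not tested.

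Of the 13 shares, those of mt-Nd4 and mt-Nd3 did not overlap between the genotypes. By CPM, 32.4% of all genes tested did not overlap in either direction. mt-Nd3 lies inside the copied stretch and mt-Nd4 partly inside, so both shares are uncertain. mt-Nd4 held 6.35% and 4.54% in libraries A and B of Tex11PM/Y cells, against 2.97% and 4.43% in WT replicates 1 and 2, so that library B and WT replicate 2 nearly meet. mt-Nd3 held 0.221% and 0.243% in libraries A and B, against 0.336% and 0.261% in WT replicates 1 and 2. The mean share of mt-Co1 was 44.9% ± 4.2 in Tex11PM/Y cells and 55.0% ± 12.5 in WT cells (SD, n = 2 each). That difference of -10.13 percentage points was -1.32 without WT replicate 1 and -18.95 without WT replicate 2. mt-Nd6 kept close to mt-Nd5, its partner on the opposite strand, with a ratio per kilobase of 0.879 and 0.642 in libraries A and B, against 0.694 and 0.763 in WT replicates 1 and 2.

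**Figure D4:**
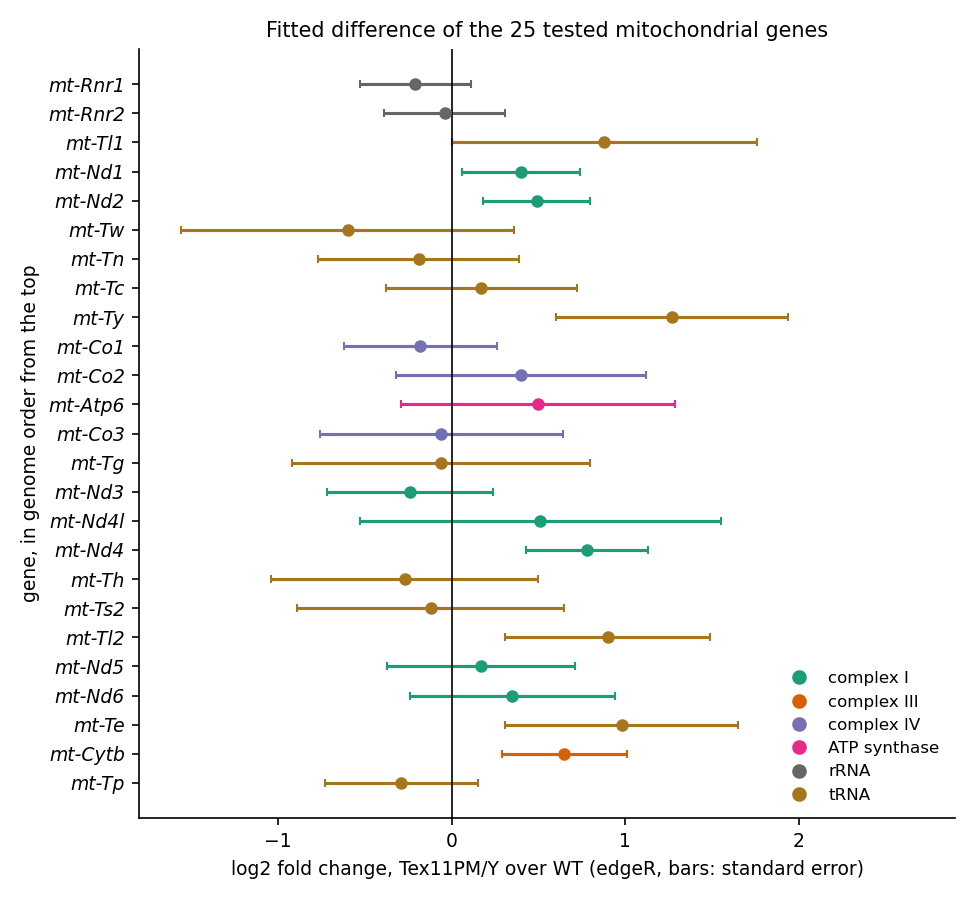
Log2 fold change, Tex11PM/Y over WT, of the 25 tested mitochondrial genes from the edgeR fit, in genome order, with bars of 1 standard error and colours for complex or RNA class. The 14 points right of 0 reach up to 1.27 (mt-Ty), and the 11 left of 0 reach down to -0.60 (mt-Tw).

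Set side by side, no member passed an adjusted p of 0.05, and the median of the mitochondrial mRNAs, above 0, changed sign when library A or WT replicate 2 was left out. Of the 37 members, 25 had enough counts to test. Of these 0 were called by edgeR, where 0.0% of all 17262 genes tested were called, and 0 had an unadjusted p under 0.05, against 2.7% of all genes. DESeq2 also called 0 members, and 0.00579% of all genes, with 4.49% of all genes at an unadjusted p under 0.05. The fitted log2 fold change was above 0 for 14 and below 0 for 11, where 51.0% of all genes were above 0. Tex11PM/Y and WT libraries did not overlap for 7 of the 25, all higher in Tex11PM/Y, where 16.1% of all genes were apart in that direction and 16.3% in the other. The median log2 fold change of the 25 was 0.17, beside 0.014 over all genes.

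For the 12 tested protein-coding genes the median log2 fold change was 0.40, with 9 above 0, 3 below 0 and 4 apart. That median was -0.39 without library A, 0.63 without library B, 0.69 without WT replicate 1 and -0.12 without WT replicate 2. The 25 members together had a median of -0.15 without library A, 0.45 without library B, 0.67 without WT replicate 1 and -0.12 without WT replicate 2. mt-Nd1, mt-Nd2, mt-Nd4 and mt-Cytb stayed above 0 in all 14 settings, at 0.16 to 0.64, 0.35 to 0.70, 0.38 to 1.04 and 0.37 to 0.95. Both Tex11PM/Y values of each lie above both WT values, so leaving out a library could hardly change the sign. The other settings reuse the same libraries, so this is no separate support. By complex, the counts as a share of the library were 0.794% and 0.538% in libraries A and B of Tex11PM/Y cells against 0.485% and 0.463% in WT replicates 1 and 2 for complex I, and 0.41% and 0.37% against 0.182% and 0.296% for complex III. The two-sided exact permutation p was 0.33 for both, the smallest this design allows. For complex IV the shares were 1.21% and 1.16% against 1.62% and 0.921%, with an exact permutation p of 1.0. Complexes I and IV have genes inside the copied stretch, and the part of the copy in their shares was not tested.

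Nuclear genes that keep, copy and process mitochondrial nucleic acids were set beside the members. Of 15 genes of mtDNA replication and the nucleoid 0 were called, with 9 above 0 and a median log2 fold change of 0.18. Twnk, the replicative DNA helicase, measured 83.1 and 95.9 CPM in Tex11PM/Y libraries A and B, against 51.8 and 60.6 CPM in WT replicates 1 and 2, a log2 fold change of 0.67 ± 0.30 (SE, edgeR). Polg, the catalytic subunit of the DNA polymerase, measured 155.5 and 157 CPM against 179 and 139 CPM. Twnk was higher in both Tex11PM/Y libraries, where 16.1% of all genes tested were apart in that direction, and Polg overlapped.

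Of 9 transcription genes 0 were called, 7 were above 0 and the median was 0.39, which was -0.03 without library A and 0.11 without WT replicate 1. Tefm, the elongation factor, measured 27.1 and 20.5 CPM in Tex11PM/Y libraries A and B, against 12.4 and 16.5 CPM in WT replicates 1 and 2. Tfam, which packages mtDNA and starts transcription, measured 57.0 and 49.1 CPM in libraries A and B, against 33.0 and 48.0 CPM in WT replicates 1 and 2. Polrmt, the RNA polymerase, measured 70.0 and 86.8 CPM against 94.5 and 86.3 CPM, and Tfb2m, its initiation factor, 37.3 and 28.9 CPM against 23.8 and 35.5 CPM. Tefm and Tfam were higher in both Tex11PM/Y libraries, where 16.1% of all genes tested were apart in that direction. Polrmt and Tfb2m overlapped between the genotypes.

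Of 20 RNA processing, polyadenylation and decay genes 0 were called, with 14 above 0 and a median log2 fold change of 0.15. Lrpprc, which stabilises mitochondrial mRNAs, measured 250 and 184 CPM in Tex11PM/Y libraries A and B, against 103 and 204 CPM in WT replicates 1 and 2. Slirp, its partner, measured 13.8 and 17.5 CPM against 13.6 and 29.6 CPM. Mtpap, the poly(A) polymerase, measured 15.0 and 11.4 CPM against 10.7 and 12.4 CPM. In these the groups overlapped, as they did for the tRNA end processing genes Trmt10c, at 71.0 and 32.4 CPM against 22.6 and 40.4 CPM, and Elac2, at 123 and 139 CPM against 98.3 and 135 CPM. They also overlapped for Pnpt1 and Supv3l1, the ribonuclease and helicase of RNA decay, with log2 fold changes of 0.47 and -0.14. Grsf1, an RNA-binding protein of mitochondrial RNA granules, measured 177 and 199 CPM against 176 and 158 CPM, a log2 fold change of 0.17 ± 0.28 (SE).

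Genes of RNA modification and aminoacylation lay mostly above 0 and those of the ribosome mostly below 0, with 0 called in each. The 16 rRNA and tRNA modification genes had a median log2 fold change of 0.22 with 12 above 0, among them Rpusd4, a pseudouridine synthase, at 50.9 and 44.3 CPM in Tex11PM/Y libraries against 34.8 and 31.6 CPM in WT libraries, and Trmt61b, a tRNA methyltransferase, at 2.87 and 1.84 CPM against 1.4 and 1.42 CPM. The 20 tRNA synthetases had a median of 0.20 with 17 above 0, among them Ears2 and Sars2, for glutamate and serine, at 52.8 and 51.6 CPM against 37.2 and 31.5 CPM and at 66.8 and 67.4 CPM against 47.6 and 50.8 CPM. Of the 83 mitochondrial ribosome genes 82 were tested, with 27 above 0, 55 below 0 and a median of -0.17, which was 0.03 without library A and 0.06 by limma on log2(TPM + 1), a setting that moved the median of all genes to 0.184. Mrpl30 and Mrpl34, proteins of the large subunit, measured 36.4 and 52.1 CPM against 94.1 and 57.4 CPM and 16.8 and 31.8 CPM against 57.0 and 33.5 CPM. The 12 translation factors and insertion genes had a median of -0.09, with 4 above 0, and 0.05 without library A and 0.11 by TPM. Mtrf1l, a release factor, measured 15.6 and 9.97 CPM against 6.69 and 6.57 CPM, and Oxa1l, which inserts mitochondrial proteins into the inner membrane, 60.9 and 79.3 CPM against 132.5 and 86.5 CPM.

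Of 7 regulators of mitochondrial biogenesis 6 were tested and 0 called, with a median of 0.16. Nrf1, a transcription factor for nuclear genes of respiration, measured 84.6 and 84.5 CPM in Tex11PM/Y libraries A and B, against 68.6 and 72.1 CPM in WT replicates 1 and 2. Esrra, a nuclear receptor of the same programme, measured 16.8 and 17.2 CPM against 33.0 and 20.5 CPM, and Gabpa 104 and 68.6 CPM against 55.5 and 79.2 CPM. Ppargc1a, the coactivator, had 8 and 2 counts against 1 and 3 counts and was not tested.

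**Figure D5:**
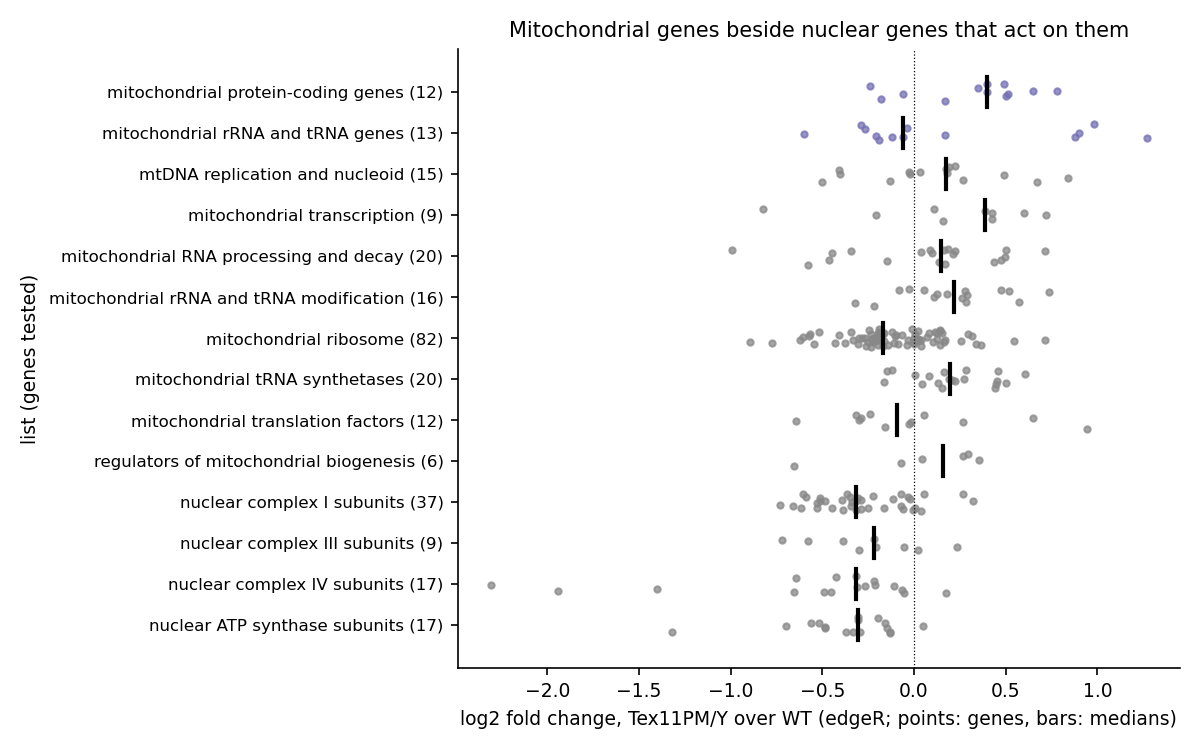
Log2 fold change, Tex11PM/Y over WT, of each tested gene (points) and the median (black bar) for the mitochondrial genes in purple and lists of nuclear genes in grey; points are spread vertically for legibility. The median is 0.40 for mitochondrial protein-coding genes and lies between -0.32 and -0.22 for the nuclear subunits of the 4 complexes.

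The nuclear subunits of all 4 complexes had a median below 0, again with 0 called. The tested mitochondrial subunits had a median log2 fold change of 0.40 in complex I, 0.65 for the 1 gene of complex III, -0.06 in complex IV and 0.50 for the 1 tested gene of ATP synthase. Of 37 nuclear complex I subunits 32 were below 0 (median log2 fold change -0.32), of 9 in complex III 7 were below 0 (-0.22), of 17 tested in complex IV 16 (-0.32) and of 17 in ATP synthase 16 (-0.31). Ndufa4 stands in both the complex I and the complex IV list. By limma on log2(TPM + 1) the complex III median was -0.02, in a setting that moved the median of all genes to 0.184. Without library A the nuclear medians were -0.05, 0.03, -0.19 and -0.02 and that of all mitochondrial protein-coding genes was -0.39. Without library B the nuclear medians were -0.70, -0.60, -0.77 and -0.69 and that of the mitochondrial protein-coding genes was 0.63. Library A had the lowest summed level for each of the 4 complexes, for example 1542 CPM for complex I against 2320 CPM in library B, and 2539 and 2020 CPM in WT replicates 1 and 2. The order of the libraries, from library A through WT replicate 2 and library B to WT replicate 1, was the same for the nuclear sums of all 4 complexes and for the summed fibroblast markers, whose part in these sums was not tested.

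Of the nuclear subunits, 3 had an unadjusted p under 0.05 in edgeR, all lower in Tex11PM/Y libraries, where 1.71% of all genes had such a p in that direction and 0.991% in the other. Their adjusted p was 0.884 in edgeR. Cox4i2, an alternative form of complex IV subunit 4, measured 0.655 and 0.947 CPM in Tex11PM/Y libraries A and B, against 5.0 and 2.98 CPM in WT replicates 1 and 2. Cox8c, a testis form of subunit 8, measured 1.01 and 1.89 CPM in libraries A and B, against 5.11 and 6.07 CPM in WT replicates 1 and 2. Atp5g2, which encodes the ring subunit c of ATP synthase, measured 46.3 and 79.2 CPM in libraries A and B, against 227 and 86.0 CPM in WT replicates 1 and 2. The smallest p among the others of each list belonged to Ndufb11 and Ndufv3 in complex I, Uqcrh and Uqcr10 in complex III and Atp5mpl in ATP synthase, with log2 fold changes of -0.62, -0.73, -0.72, -0.58 and -0.56.

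The summed level of the mitochondrial subunits of complex I stood 5.01 and 2.29 times above that of its nuclear subunits in libraries A and B of Tex11PM/Y cells, against 2.04 and 2.25 times in WT replicates 1 and 2. For complex III the ratio was 6.28 and 3.72 in libraries A and B, against 1.89 and 3.31 in WT replicates 1 and 2. For complex IV it was 10.3 and 6.11 against 7.31 and 5.24. Both genotypes were apart for complexes I and III, by a margin set by library B and WT replicate 2, and overlapped for complex IV. These are ratios of summed CPM, not scaled for gene length, and for complexes I and IV they leave out what the copied stretch may hide.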

How the data were processed

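Poly(A) RNA of 2 Tex11PM/Y and 2 WT SSC libraries was sequenced, per the labels' protocols. The authors deposited a table of whole-number read counts per gene (55335 genes, in featureCounts layout per the file headers) and tables of FPKM and of TPM values for 37653 genes, per the file headers. Tools named in the submitters' processing notes, without role or version, are STAR, fastp, StringTie, featureCounts and DESeq2; the build is mm10. Annotation release and handling of multi-mapping reads are not given in the sources used here. Since 1 name is shared by the 2 mutant columns, these are called library A and library B in column order and cannot be tied to replicate numbers.

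Gene symbols were read from the FPKM table (37653 genes) or a reference name table (17602); 80 had none. Counts were fitted with edgeR 4.0.16 under R 4.3.3 (low counts removed by filterByExpr, TMM scaling, robust quasi-likelihood, genotype alone in the model). Benjamini-Hochberg adjustment ran over 17262 genes, with a threshold of 0.05. The fit was also run on simulated counts with known changes and the same small spread for every gene. That run does not measure power in these libraries. CPM are scaled by TMM; levels between genes are compared per kilobase. Shares were compared by two-sided exact permutation tests (scipy 1.17.1). Each result was recomputed with DESeq2 1.42.0, with its size factors inside edgeR, without TMM, with a scale from nuclear genes only, with other count filters (none, or at least 1 CPM in 2 libraries), with limma 3.58.1 on log2 values of TPM + 1, FPKM + 1 or FPKM + 0.1, and with each library left out. Total counts were between 19047148 and 19804951. PCR reads are not independent molecules, so floors cover counting error only.

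Members, nuclear lists, markers and tests were chosen with earlier results of these data known. Named genes were all members, their annotated copies, 18 nuclear genes fixed by function, and in each other list the 2 tested genes with the smallest p. Gm10222 and the chromosome 2 copy were found by sequence and position afterwards. All sequences came from GENCODE M21 transcripts (GRCm38, the mm10 assembly).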

Additional observations from a re-analysis of the deposited data

How the results depend on the processing

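No paired analysis was possible because the 2 mutant columns share 1 name and replicate number, so neither can be matched to a WT replicate. The count of called members was 0 in all 14 settings; over all genes, calls were 16 higher and 34 lower without a count filter and 74 higher and 444 lower without library B. Log2 fold changes that changed sign, the cause not tested, were: by library size alone, 0.03 each for mt-Rnr2, mt-Co3 and mt-Tg; by log2(FPKM + 1), mt-Rnr2 0.02, mt-Tw 0.39, mt-Tn 0.08, mt-Th 0.2 and mt-Ts2 0.32; by log2(TPM + 1), mt-Rnr2 0.13, mt-Tw 0.53, mt-Tn 0.2, mt-Co1 0.11, mt-Co3 0.03, mt-Tg 0.09, mt-Nd3 0.1, mt-Th 0.32, mt-Ts2 0.44 and mt-Tp 0.01; by log2(FPKM + 0.1), mt-Rnr2 0.02, mt-Tw 0.42, mt-Tn 0.08, mt-Th 0.2 and mt-Ts2 0.32. The median over all genes tested was 0.014 in the main fit and 0.076 by library size alone. It was 0.067 by log2(FPKM + 1), 0.184 by log2(TPM + 1) and 0.077 by log2(FPKM + 0.1). By log2(TPM + 1), mt-Rnr2, mt-Co1, mt-Co3, mt-Tg, mt-Nd3 and mt-Tp lay below that median, and mt-Tw, mt-Tn, mt-Th and mt-Ts2 above it. The difference in mitochondrial share moved to 1.1 percentage points by summed TPM, from 0.26 by counts. List medians that moved by TPM were 0.35 (RNA processing), 0.06 (ribosome), 0.33 (synthetases), 0.11 (translation factors), 0.34 (biogenesis) and -0.02 (complex III); without a count filter 0.16 (synthetases) and 0.23 (biogenesis); by library size 0.26 (synthetases); by log2(FPKM + 0.1) 0.26 (biogenesis).

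With each library left out in turn, log2 fold changes lay between these bounds: mt-Rnr2 -0.49 and 0.25, mt-Tl1 0.11 and 2.49, mt-Tw -1.99 and 0.51, mt-Tn -0.71 and 0.17, mt-Tc -0.12 and 0.5, mt-Co1 -0.6 and 0.34, mt-Co2 -0.8 and 1.07, mt-Atp6 -1.07 and 1.19, mt-Co3 -1.15 and 0.67, mt-Tg -0.73 and 1.06, mt-Nd3 -0.62 and 0.22, mt-Nd4l -0.89 and 2.27, mt-Th -0.88 and 0.71, mt-Ts2 -0.72 and 0.83, mt-Nd5 -0.5 and 0.93, mt-Nd6 -0.65 and 1.01, mt-Tp -0.69 and 0.19. Without WT replicate 2 the values were -0.21 for mt-Rnr2, -0.1 for mt-Co2, -0.59 for mt-Co3, -0.3 for mt-Nd4l and -0.36 for mt-Nd5; without WT replicate 1 mt-Tw was at -1.23, and without library B mt-Tc was at -0.11. Medians lay between -0.39 and 0.69 for mitochondrial protein-coding genes, -0.15 and 0.67 for all members, -0.03 and 0.52 for transcription, -0.31 and 0.03 for the ribosome, 0.12 and 0.32 for synthetases, -0.24 and 0.05 for translation factors, 0.02 and 0.25 for biogenesis, -0.7 and -0.05 for complex I, -0.6 and 0.03 for complex III, -0.77 and -0.19 for complex IV, -0.69 and -0.02 for ATP synthase, and -0.97 and 0.95 for the nuclear copies. The share difference lay between -0.05 and 0.57 percentage points. A genotype left with 1 library was assumed to vary like the other. Depth limits the tRNA genes, most with under 100 counts.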
